A study of Drosophila melanogaster with 2 samples.

Results

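The wide stretches described here are the gaps of 10 kb or more that separate neighbouring contact domains in a Hi-C map of Kc167 cells. They were chosen by their width from the list of domains alone: domains were sorted along each chromosome arm, and the gap was taken from the end of one domain to the start of the next. Of 2120 such gaps over 6 arms (X, 2L, 2R, 3L, 3R and the small chromosome 4), 500 reached this width. Kc167 is a cultured cell line of Drosophila melanogaster with embryonic origin. Both samples, one labelled primary and the other replicate, belong to this 1 group. The cells were grown at 25 °C, with no treatment beyond fixation in 1% paraformaldehyde. Hi-C joins the ends of DNA fragments that are close together in the nucleus and counts the joined pairs by sequencing. Here the ends were ligated while the chromatin was held on beads. The map pools the 2 samples, so no value has a spread between them, and no test over samples could be made. Intervals below are 95% and exact (Clopper-Pearson for shares, Poisson for rates, order statistics for medians). They cover counting error only, and neighbouring regions are not independent of each other. The read depth behind the map is unknown.

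A contact domain is a stretch of chromosome whose parts meet each other more often than they meet the neighbouring sequence. In flies the sequence between such domains is known for active, broadly expressed genes and for the insulator proteins that bind there. The sequence close to centromeres is known as heterochromatin, rich in repeats in which short reads are hard to place. A stretch without a domain is therefore sequence in which the caller reported no domain, which is not the same as sequence without folding. The genes and the bases inside the stretches were not analysed here, as no genome of the dm3 build was used.

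Wide stretches were a minority of the gaps and most of the sequence outside domains. They made up 23.6% of gaps (21.8 to 25.5%) and 78.0% of all gap length, 18.3 Mb, against 5.17 Mb in the 1620 narrower gaps. They thus took up 15.3% of the 120 Mb spanned by the lists, against 4.31% for the narrower gaps and 79.5% for domains. Their median width was 22 kb (20 to 24 kb), with quartiles at 13.5 and 43.1 kb. The widths ran from 10 to 529 kb without a break at the chosen minimum: 28 stretches were exactly 10 kb wide, 13 were 10.5 kb and 16 were 11 kb, while 17 gaps of 9.5 kb, 33 of 9 kb and 18 of 8.5 kb lay just outside. The minimum therefore cuts through a continuous range and does not mark a separate class of gap.

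A few very wide stretches held much of the length. The 222 stretches of 10 to under 20 kb were 44.4% of the members and held 16.6% of their length. The 183 stretches of 20 to under 50 kb held 31.6%, and the 64 of 50 to under 100 kb held 23.3%. The 31 stretches of 100 kb or more, 6.2% of the members, held 28.4%, or 5.2 Mb. The 10 widest alone held 2.63 Mb.

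These 10 were spread over 4 arms. The widest lay on 3L (23766001 to 24295000, 529 kb), and 2 others on that arm measured 246 kb (23334001 to 23580000) and 232 kb (6256001 to 6488000). X had 3, of 369 kb (21476001 to 21845000), 186 kb (2632001 to 2818000) and 182 kb (13888001 to 14070000). On 2L there were 2, of 253 kb (22599001 to 22852000) and 214 kb (21416001 to 21630000), and on 2R also 2, of 248 kb (2142001 to 2390000) and 170 kb (6806001 to 6976000). None of the 10 was on 3R, where the widest stretch measured 117 kb (24520001 to 24637000), or on chromosome 4, where it measured 79.5 kb (1144501 to 1224000). Of the 10, 6 lay in the 20% of their arm nearest the centromere.

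The share of gaps that were wide was highest on chromosome 4 and lowest on 3R. On chromosome 4, the small dot chromosome known for its heterochromatin-like character along its length, 10 of 20 gaps were wide (50%, 27.2 to 72.8%). The share was 29.5% on 2L (24.8 to 34.5%, 107 of 363 gaps), 23.2% on X (89 of 383), 22.9% on 3L (93 of 406), 21.9% on 2R (97 of 442) and 20.6% on 3R (17.1 to 24.3%, 104 of 506). The interval of 2L lay above that of 3R, and the intervals of neighbouring arms in this order overlapped. Median widths lay between 18 kb on chromosome 4 (11 to 29 kb) and 23 kb on X and 2R, with overlapping intervals on all 6 arms. Wide stretches covered 18.4% of chromosome 4, 17.9% of 2L, 16.1% of 2R, 15.8% of X, 15.7% of 3L and 11.4% of 3R.

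**Figure D1:**
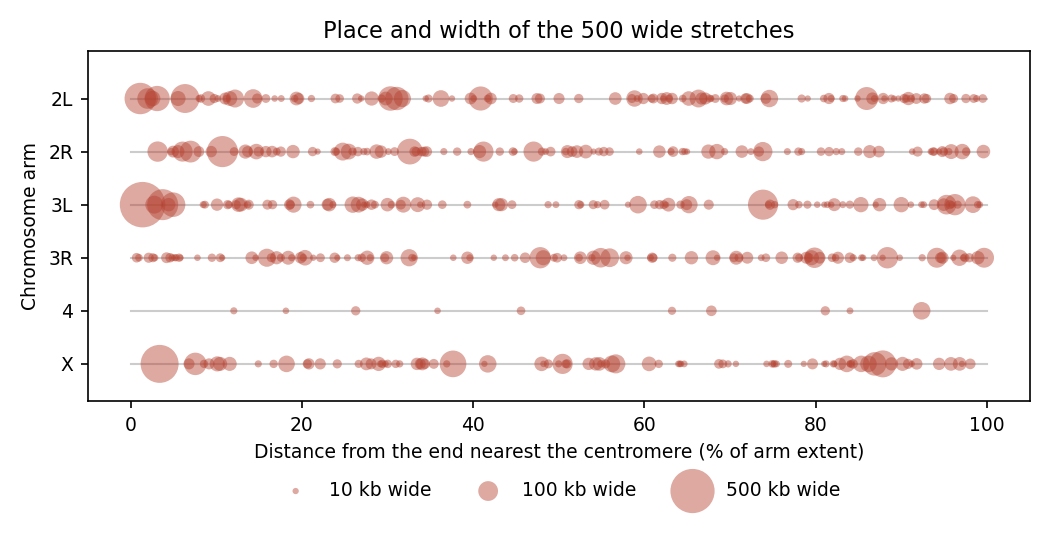
Each circle is 1 of the 500 wide stretches, drawn at its distance from the centromere end of its arm (horizontal axis, % of the extent of the arm in the lists) with an area in proportion to its width. Wide stretches occur along the whole of every arm, and the largest circles sit at the left on 2L, 2R, 3L and X but not on 3R.

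Along the arms wide stretches were found everywhere. When each arm was divided into windows of 1 Mb from its centromere end, every one of the 117 full windows was touched by a wide stretch. The median window had 12% of its sequence in them (quartiles 7.3 and 20%). In 10 windows the share exceeded 30%, and in 3 of these it exceeded 40%. The highest was the window at the centromere end of 3L (23370001 to 24370000), with 82.2%, and the next was that of 2L (21985001 to 22985000), with 58.7%. The third lay far from the centromere, on X at 2420001 to 3420000, where 5 stretches took up 51.3%. On 2R the windows 1000001 to 2000000 and 2000001 to 3000000 held 37.1 and 35.7%.

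The distance from the centromere went with width more than with number. Each arm was measured from the end at which its centromere lies (the high end of 2L, 3L and X, the low end of 2R, 3R and 4) and cut into 5 equal parts. From the part nearest the centromere outward, wide stretches covered 22.7, 13.9, 11.7, 11.9 and 16.1% of the sequence. The share of gaps that were wide varied less, at 27.2% (22.8 to 32.1%), 24.2, 20.4, 20.9 and 25.5% (21.6 to 29.7%), and neighbouring parts overlapped in their intervals. The part nearest the centromere held 100 of the 500 wide stretches (20%, 16.6 to 23.8%), against 267 of the 1620 narrower gaps (16.5%, 14.7 to 18.4%) and 368 of the 2126 domains (17.3%). Over all arms together, both ends thus had more sequence in wide stretches than the middle.

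This did not hold on each arm. On 2R the far end had less than the middle part (11.99 against 14.42%), and on 3R the centromere end had less than the middle part (10.7 against 11.8%). Sequence before the first and after the last domain of an arm is no gap between domains and was not counted as a stretch. At the centromere end it came to 574 kb on 2R, longer than any member, 102 kb on chromosome 4 and 46.5 kb on 3R. On 2L, 3L and X the extent ended with the last domain, so none could be counted there.

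**Figure D2:**
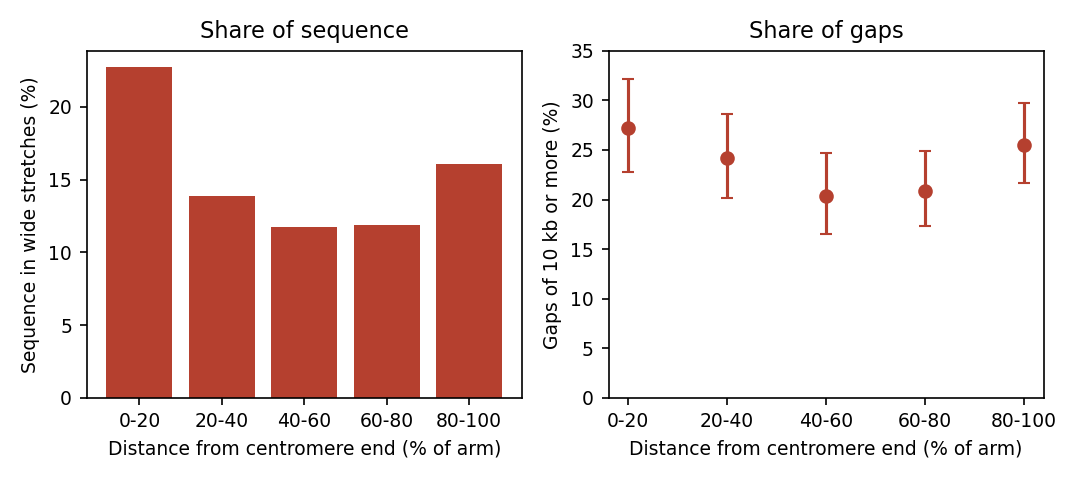
The left panel gives the share of sequence that lies in wide stretches, and the right panel the share of gaps that are 10 kb or wider with exact 95% intervals, both by distance from the centromere end (% of arm extent, all 6 arms together). Coverage is 22.7% in the part nearest the centromere and 11.7% in the middle, while the share of gaps moves only between 20.4 and 27.2%.

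Split by width, a larger share of the wider stretches lay in the part of the arm nearest the centromere. In the 20% of the arm nearest it were 32 of 222 stretches of 10 to under 20 kb (14.4%, 10.1 to 19.7%), 38 of 183 of 20 to under 50 kb (20.8%, 15.1 to 27.4%), 17 of 64 of 50 to under 100 kb (26.6%, 16.3 to 39.1%) and 13 of 31 of 100 kb or more (41.9%, 24.5 to 60.9%). The shares rose with each step in width, and the interval of the widest class lay above that of the narrowest. From the part nearest the centromere outward, 13, 4, 5, 2 and 7 of the 31 widest were found, so the far end had the second most. In the 20% nearest the centromere the median width was 29.8 kb (22 to 36 kb), against 22 kb in the next part outward (18 to 27 kb).

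The arms did not all share this pattern. On 3L 38.9% of the length of wide stretches lay in the 20% nearest the centromere, on 2L 34.5%, on 2R 31.7% and on X 23.8%. On 3R it was 18.7%, from 25 stretches, and on chromosome 4 10.2%, from 2 stretches. Among the large arms X had the fewest members there, 11 of 89, and 1 stretch of 369 kb made up much of their 0.841 Mb. X also had the largest share of wide gaps among the large arms at the other end, 23 of 66 gaps (34.8%) with 1.02 Mb.

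The next gap along the arm was wide somewhat more often after a wide stretch than after a narrower gap. Of the 500, 238 had another wide stretch on the far side of 1 neighbouring domain (47.6%, 43.1 to 52.1%). As 23.6% of all gaps were wide and most stretches have a gap on either side, wide neighbours would be common in random order too. The share in such an order was not computed, nor was the same share for narrower gaps. After a wide gap the next gap along the arm was wide in 142 of 494 cases (28.7%, 24.8 to 33.0%), against 356 of 1620 cases after a narrower gap (22.0%, 20.0 to 24.1%). The intervals do not overlap, but the gaps that share a domain are not independent. By arm the same comparison gave 36.8% against 26.6% on 2L, 33.7% against 19.8% on 3L and 33.0% against 20.4% on X. It gave 21.4% against 20.4% on 3R, 18.8% against 22.6% on 2R, and 3 of 9 against 6 of 10 on chromosome 4. The share was thus higher after a wide gap on 2L, 3L and X, nearly equal on 3R and lower on 2R and chromosome 4, and the 2 intervals overlapped on each arm taken alone. Cut into 5 equal parts, the arms gave, outward from the centromere, 34.0 against 25.1%, 23.8 against 23.7% and 28.4 against 18.4%. The outer 2 parts gave 30.6 against 18.1% and 27.4 against 25.4%. In each part the 2 intervals overlapped.

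Among stretches of 50 kb or more the contrast was larger, and it lay mainly near the centromere. After such a stretch the next gap was also 50 kb or more in 14 of 90 cases (15.6%, 8.77 to 24.7%), against 80 of 2024 cases after any other gap (3.95%, 3.15 to 4.90%). In the 20% of the arm nearest the centromere it was 9 of 27 (33.3%, 16.5 to 54.0%) against 20 of 337 (5.93%, 3.66 to 9.02%). In the rest of the arm it was 5 of 63 (7.94%, 2.63 to 17.6%) against 60 of 1687 (3.56%, 2.72 to 4.55%), with overlapping intervals. The 9 cases near the centromere lay in a few runs on 2L, 2R, 3L and X, so they are not independent. Several came from 1 run on 2L, with stretches of 163.5, 62, 108.5 and 253 kb. How well reads can be placed in the sequence near the centromere was not tested.

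The 500 stretches fell into 358 runs, meaning series of successive wide gaps with 1 domain between each pair. A run of a single stretch was the usual case, with 262, and 64 runs had 2 stretches. The remaining 32 runs had 3 or more and held 110 stretches, and 8 of these 32 were centred in the 20% of the arm nearest the centromere. How many runs of each size other orders of the same gaps would give was not computed. The median distance between successive wide stretches was 121 kb (quartiles 49.6 and 280 kb), with a median of 3 domains in it. In 142 cases 1 domain lay between them, in 72 cases 2, and in 38 cases more than 10.

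The run with most stretches lay on 2L (8528001 to 9008000), with 6 stretches of 10 to 42 kb and 5 domains of 19 to 198 kb between them. Wide stretches were 29.6% of its 480 kb. The 3 runs of 5 stretches were of different make. On 3L (23085001 to 24295000) stretches of 154, 47, 246, 83 and 529 kb alternated with 4 domains of 24 to 75 kb, so that 87.5% of 1210 kb lay outside domains. On 2L (20141001 to 20647000) the stretches measured 12 to 83 kb and made up 40.02%. On X (3826001 to 4265000) they measured 10 to 39 kb and made up 19.7%. A run can therefore be domain-poor sequence with a few small domains, or a row of large domains set somewhat apart.

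**Figure D3:**
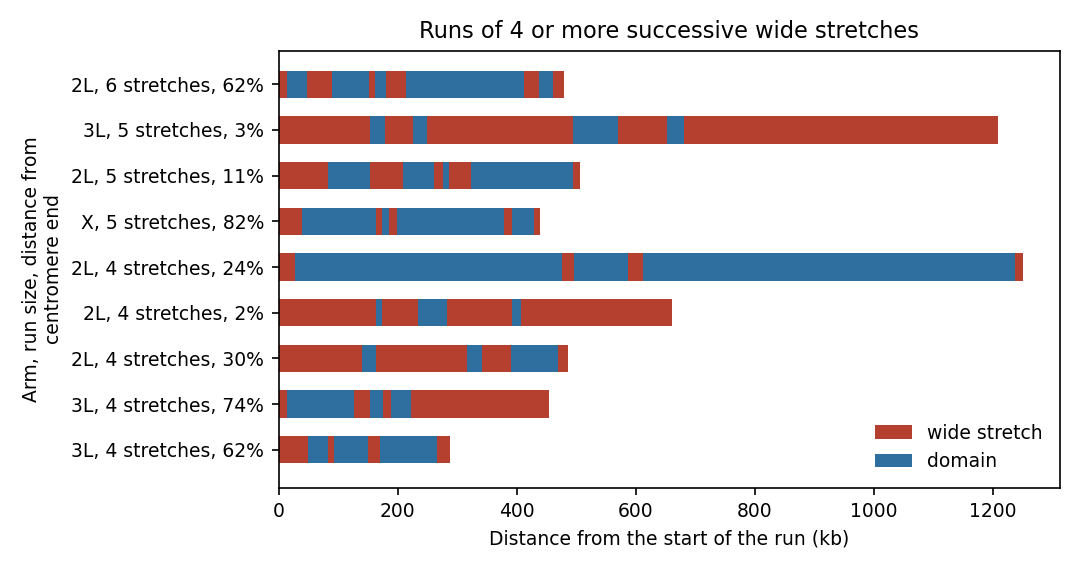
Each bar is 1 of the 9 runs of 4 or more successive wide stretches, with wide stretches in red and the domains between them in blue, against the distance from the start of the run (kb). The label gives the arm, the number of stretches and the distance of the run's middle from the centromere end (% of arm extent). The run on 3L at 3% and one on 2L at 2% are mostly red, while one on 2L at 24% is mostly blue.

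Long sequence with no wide stretch was found as well. The longest such interval was 1416 kb on 3L (6488001 to 7904000), with 20 domains in a row. Next came 1344.5 kb on X (11685501 to 13030000), with 16 domains, and 1259 kb on 3R (9216001 to 10475000), with 25 domains. The interval on 3L began where the 232 kb stretch named above ended.

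The domains that touched a wide stretch were longer than the others. There were 858 of them among the 2126 domains (40.4%). Their median length was 24 kb (22.5 to 26 kb), against 20 kb (19 to 21 kb) for the 1268 domains that touched none. Domains over 100 kb made up 14.1% of the touching domains, against 8.83% of those touching none. Up to 10 kb the shares were 15.3 and 16.9%. Read the other way, 38.0% of domains up to 10 kb touched a wide stretch (32.8 to 43.3%), 35.9% of those over 10 to 20 kb, 40.03% of those over 20 to 50 kb, 46.5% of those over 50 to 100 kb and 51.9% of those over 100 kb (45.3 to 58.5%). The share was thus highest beside the longest domains. The medians were longer for touching domains on each arm, by 0.5 kb on 2R (19 against 18.5 kb) and 1 kb on 2L (25 against 24 kb), and by more on 3L (24 against 20 kb), 3R (26 against 19.5 kb) and X (24.5 against 21 kb). On chromosome 4 only 4 domains touched none, with a median of 26.5 kb, against 39 kb for the 17 that touched a wide stretch. The intervals of the 2 medians touched on 3R and overlapped on every other arm.

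These domains, although longer, had lower corner scores. The corner score is the authors' column named score, a value per domain with no stated meaning or scale. It is called so here because the column names are those of the domain caller in Juicer, in which this column rates how clearly the far corner of a domain stands out. Longer domains had higher ones. The median was 1.26 (1.23 to 1.29) for domains touching a wide stretch and 1.33 (1.31 to 1.35) for domains touching none. On each of the 5 large arms the median was lower for the touching domains: 1.23 against 1.31 on 2L, 1.25 against 1.34 on 2R, 1.28 against 1.34 on 3L, 1.28 against 1.34 on 3R and 1.29 against 1.34 on X. On chromosome 4 it was 1.35 for the 17 touching domains against 1.09 for the 4 others. The intervals of the 2 medians were apart on 2R and overlapped on every other arm. By distance from the centromere the median was lower for the touching domains in 4 of the 5 parts of the arm. It went from 1.20 against 1.29 nearest the centromere to 1.26 against 1.32 at the far end. From 20 to 40% of the arm it was 1.33 against 1.31, and the intervals overlapped in each part. Among domains of similar length the order was the same in each class. Over 10 to 20 kb the medians were 1.21 (1.17 to 1.26) and 1.31 (1.28 to 1.34), with separate intervals. In the other classes the intervals overlapped, with medians of 1.02 and 1.07 up to 10 kb, 1.33 and 1.38 over 20 to 50 kb, 1.30 and 1.46 over 50 to 100 kb, and 1.48 and 1.58 over 100 kb. Of the lowest 25% of domains by score, 48.1% touched a wide stretch (43.8 to 52.5%), and of the highest 25%, 34.4% (30.4 to 38.6%). Scores and borders were set by the same caller on the same map, so these values are not independent of the choice of members.

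**Figure D4:**
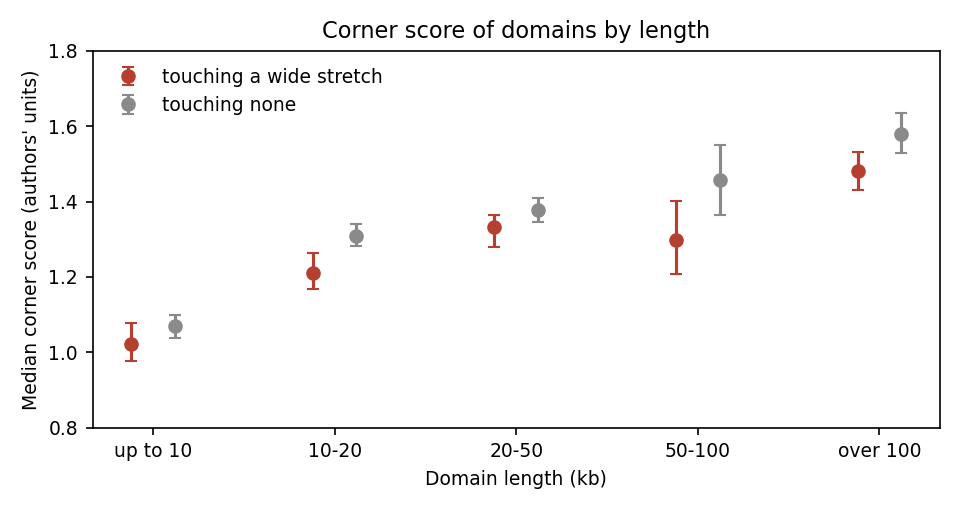
Points are median corner scores, in the authors' units, of domains touching at least 1 wide stretch (red) and of domains touching none (grey), by domain length, with exact 95% intervals of the median. The red median lies below the grey one in all 5 length classes, and the intervals are apart at 10 to 20 kb only.

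The scores beside a stretch also went with its width. The median corner score of the 2 flanking domains was 1.33 beside stretches of 10 to under 20 kb, 1.19 at 20 to under 50 kb, 1.28 at 50 to under 100 kb and 1.08 at 100 kb or more. Flanks with a score under 1 made up 13.7% of the 444 flanks in the narrowest class, 27.0% and 32.8% in the next classes and 41.9% of the 62 in the widest. Of the 1268 domains touching no wide stretch, 13.0% scored under 1, and their median was 1.33. Flanks in the narrowest class were thus close to those domains, and the lower scores lay beside stretches of 20 kb or more. Across the 500 stretches the rank correlation of width with the mean flanking score was -0.27, as a description of points from 1 map that share domains. Flank length hardly changed with width, with medians of 26, 25, 23 and 24.5 kb in the same classes and a rank correlation of -0.12 between width and the summed flank length. The scores of the 2 flanks had a rank correlation of 0.20 with each other, against 0.17 across narrower gaps, and their lengths one of 0.05, against -0.04. The other 4 values that the authors give for each domain, whose scale is not stated either, differed in the same comparison. Those with Sign in their name were lower in domains touching a wide stretch, with medians of 0.762 against 0.793 (upSign) and 0.765 against 0.791 (loSign). Those with Var in their name were higher, at 0.0470 against 0.0435 (uVarScore) and 0.0475 against 0.0429 (lVarScore). The intervals were apart for lVarScore and touched or overlapped for the others.

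Flanks of 1 stretch were often unequal. The longer one exceeded the shorter by a median of 2.53-fold, against 2.26-fold across narrower gaps. At 134 of the 500 stretches 1 of the 2 flanks was over 100 kb, and at 8 both were. Across the 1620 narrower gaps the counts were 304 and 5. The stretch itself was wider than either flank in 154 cases (30.8%), among them 28 of the 31 stretches of 100 kb or more. Domains on the side towards the centromere (median 24 kb, score 1.25) and on the side away from it (26.3 kb, 1.28) had overlapping intervals in both measures.

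Domains with a wide stretch on both sides had the longest median length. There were 142 of them, with a median length of 35.5 kb (25 to 43 kb). For the 716 with a wide stretch on 1 side it was 23 kb (20 to 25 kb), so the intervals touched. The median corner score of the 142 was 1.22 (1.13 to 1.30), against 1.28 (1.23 to 1.30) with a wide stretch on 1 side, so the intervals overlapped. In 45 cases the domain was shorter than either of its wide neighbours. The 5 with the widest surroundings lay on 3L and 2L. On 3L the domain 23738001 to 23766000 (28 kb, score 0.640) stood between stretches of 83 and 529 kb, 23580001 to 23655000 (75 kb, 0.909) between 246 and 83 kb, and 23310001 to 23334000 (24 kb, 1.23) between 47 and 246 kb. On 2L the domain 22583001 to 22599000 (16 kb, 0.734) stood between 108.5 and 253 kb, and 15910001 to 15933000 (23 kb, 0.753) between 140 and 153 kb. The first 3 belong to the run of 5 stretches on 3L described above.

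Loops are pairs of distant anchors that meet more often than their surroundings, and the list gives their positions only. Wide stretches held 24 of the 202 distinct anchors (11.9%, 7.76 to 17.2%) in 15.3% of the extent. This is 1.31 anchors per Mb (0.840 to 1.95), against 2.90 per Mb in narrower gaps (1.62 to 4.79, 15 anchors) and 1.71 per Mb in domains (1.46 to 1.99, 163 anchors). The interval of the wide stretches overlapped both of the others. An anchor was placed by its midpoint. Of the 24, 19 lay wholly inside their stretch, and the others straddle the end of a domain. In 2 of those that straddle, the midpoint fell on the first base of the stretch.

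**Figure D5:**
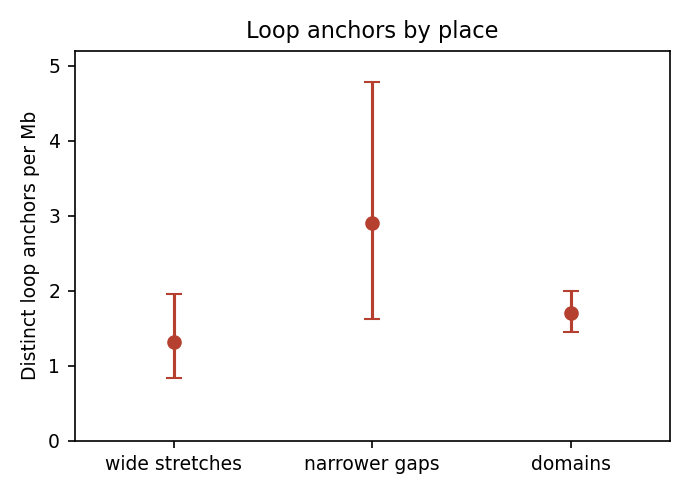
Points are distinct loop anchors per Mb of wide stretches, narrower gaps and domains, with exact 95% Poisson intervals. Wide stretches have 1.31 per Mb and domains 1.71 with overlapping intervals, and narrower gaps have 2.90 from 15 anchors.

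The 24 anchors lay in 20 stretches, so that 4% of the members (2.46 to 6.11%) held any. Of these 20, 16 held 1 anchor and 4 held 2. By width the rate was 2.30 per Mb in stretches of 10 to under 20 kb (0.924 to 4.73, 7 anchors), 1.04 at 20 to under 50 kb, 0.938 at 50 to under 100 kb and 1.34 at 100 kb or more (0.541 to 2.77, 7 anchors). All these intervals overlapped. Among the 10 widest stretches only the one on X at 13888001 to 14070000 held anchors. By arm X held 8 of the 24, 3L 6, 2L 4, 2R 3, chromosome 4 2 and 3R 1. Inside the stretches the median distance of the anchor midpoint to the nearest domain end was 4 kb. Of the 24 anchors 13 lay within 5 kb, and 6 lay more than 20 kb away. These distances are limited by the width of the stretch, and 19.1% of the sequence of the 20 stretches lay within 5 kb of a domain end. That share is pooled by length and set mostly by the widest of the 20. In the narrowest, of 10 kb, all sequence is that close, so 19.1% is no like measure for the 13 anchors. The farthest, on X at 2919501 to 2922001, was 54.8 kb from the nearest domain.

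Of the 120 loops, 21 had an anchor in a wide stretch (17.5%, 11.2 to 25.5%), and 8 had both. Among the 8, the loop on chromosome 4 counts through a midpoint on the first base of its stretch. In 13 loops 1 anchor lay in a wide stretch. The other anchor was in a domain in 10 of these and in a narrower gap in 3. In 3 of the 10 that domain was a direct neighbour of the stretch.

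By anchor midpoints, the 4 stretches with 2 anchors each held both ends of 1 loop, with no whole domain between them. On X, loops joined 13908001 to 13910001 with 13918001 to 13920001 (span 10 kb, in the stretch of 182 kb), 2867001 to 2869501 with 2919501 to 2922001 (52.5 kb, in a stretch of 142 kb at 2866001 to 3008000) and 11064501 to 11065501 with 11127001 to 11128001 (62.5 kb, in a stretch of 104 kb at 11058001 to 11162000). On 3L a loop joined 1098501 to 1103001 with 1175501 to 1179001 (76.5 kb), in a stretch of 99 kb at 1100001 to 1199000. The first of its anchors begins inside the domain before that stretch. By their midpoints these 4 loops lay in sequence where no domain was listed. The stretch on X at 2866001 to 3008000 is part of the 1 Mb window with 51.3% described above.

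The other 4 loops with both anchors in wide stretches joined different stretches. On 3L 4540001 to 4546001 met 4622001 to 4628001 (82 kb, between stretches of 12 and 10 kb), and on chromosome 4 152001 to 154001 met 226001 to 228001 (74 kb, between stretches of 13 and 11 kb). On 2R 10898001 to 10900001 met 10995001 to 10998001 (97.5 kb, between stretches of 29 and 41 kb). Between the anchor midpoints lay 1 whole domain on 3L and on 2R, and 2 on chromosome 4. The last of the 4 spanned 3108 kb on 2L, from 6354001 to 6362001 in a stretch of 16 kb to 9462001 to 9470001 in one of 69 kb. The anchor 226001 to 228001 on chromosome 4 has its midpoint on the first base of its stretch. Counted to the domain, its loop would not be among these. The anchors at 4622001 on 3L and 6354001 on 2L also begin inside the domain before the stretch.

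Loops that reached a wide stretch included most of the very long ones. Of the 7 loops over 1 Mb, 5 had an anchor in a wide stretch (71.4%, 29.0 to 96.3%), against 16 of the 113 shorter loops (14.2%, 8.32 to 22.0%). The 5 were the one on 2L, 2 on 2R that share their other anchor (6215 and 6310 kb), 1 on 3L (2675 kb) and 1 on 3R (1318 kb). The 2R pair shares an anchor, so the 5 loops are not independent. The loop of 6310 kb counts through a midpoint on the first base of its stretch. With such midpoints counted to the domain the numbers were 4 of 7 (57.1%, 18.4 to 90.1%) against 16 of 113, and the intervals overlapped. The anchors of these long loops were listed 5 to 10 kb wide where they lay in wide stretches, against a median of 2.5 kb over all 24 anchors there. The median span of the 21 loops was 76.5 kb (52.5 to 148 kb), against 49 kb (38.5 to 59.3 kb) for the 99 others, with overlapping intervals.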

How the data were processed

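Hi-C was done on 2 samples of 1 group, Kc167 cells. Per the submitters' processing notes, BWA and Juicer were used with dm3 (BDGP5). Caller names, versions and parameters are not given in the sources used. Domains and loops were deposited as 2 lists for both samples combined. The score values per domain are the authors' own, deposited without a stated scale. Loops come as positions only.

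Gaps were computed as the next start minus the previous end, with Python 3.11.15, numpy 2.4.6, pandas 2.3.3 and scipy 1.17.1, and a minimum of 10 kb. Starts are printed as listed plus 1, and anchors as listed. Overlapping or touching anchors were merged for anchor counts, while loops were placed by their own ends. Arm extent runs to the largest listed position. No p-value was computed. The code was tested on simulated data with known gaps and anchors. Members, measures and the regions to be named were chosen with earlier results of these data known. Named were the 10 widest stretches, the widest of each arm, gaps at the minimum, loops with both anchors in wide stretches, the runs with most stretches and the 5 enclosed domains with the widest surroundings. Intervals without wide stretches, windows of 1 Mb and the farthest anchor were named, and the comparison of successive gaps of 50 kb or more was split by place, after their values were seen.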

Additional observations from a re-analysis of the deposited data

How the results depend on the processing

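Of 76 recomputed values, 55 stayed within the interval of the value reported, or for counts and sums within 1.5 times of it. Leaving out any 1 arm, placing anchors by overlap or whole inclusion, counting each loop end, and using loops under 1 Mb were all among these, as was counting midpoints on the first base of a stretch to the domain, a setting chosen after seeing the data. Without 1 arm most of the stretches remain, so these values could move little. Differences between touching and other domains, or after wide and narrower gaps, were not recomputed without an arm. The other 21 values follow from a changed definition. At a minimum of 20 kb there were 278 stretches with a median of 39.8 kb, 24.5% lay in the 20% of the arm nearest the centromere, 30.6% had a wide neighbour and the flanking score was 1.20. At 50 kb these shares were 31.6% and 25.3%, with a score of 1.16. At 5 kb 69.9% had a wide neighbour and the score was 1.31, as in the other domains (1.31), so the lower flanking scores depend on the minimum width. By length 29.8% of the stretches lay in the 20% nearest the centromere, and by number 9.4% lay within 2 Mb of it. With only the upper 50% of domains by score, stretches summed to 46.8 Mb with a median of 45.5 kb, 61 anchors and 80.3% with a wide neighbour, and 16.0% lay nearest the centromere. A wide neighbour within 100 kb was found for 68.4%, and across up to 2 domains for 67%. Domains with wide stretches on both sides had a median of 35.5 kb and a score of 1.22. Place by the arm lengths of a reference genome, sequence content and gene density were not run, as no dm3 genome was used. Leaving out a sample was not possible with pooled lists. No paired analysis was possible because both samples were merged before deposit. Depth could not be assessed.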

Other observations

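The ends of domains beside wide stretches lay on coarse positions slightly more often than other domain ends. Of the 1000 ends that border a wide stretch, 24.1% were multiples of 5 kb, against 18.8% of the 3240 ends that border a narrower gap, and 79.2% against 72.6% were multiples of 1 kb. All ends lay on a grid of 500 bp. Whether this grid bears on the widths was not tested.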
